A study of Mus musculus with 12 samples.

Results

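The genes described here are 10 that belong to, or are controlled by, the liver X receptor (LXR) pathway of cholesterol efflux: the receptors Nr1h3 and Nr1h2, the transporters Abca1 and Abcg1, and the lipid handling genes Apoe, Pltp, Lpl, Lpcat3, Mylip and Plin2. They were chosen by symbol. All 10 were among the 23764 genes of the deposited table, and 10 of 10 passed the filter on low values that left 14715 genes for testing. RNA sequencing measured them in RAW264.7 cells, an immortalized macrophage-like line of Balb/c mouse origin that forms osteoclast-like cells when given RANKL, the cytokine that drives osteoclast formation. Every group received RANKL (the labels give 100 ug/ml) in medium with 10% serum. The vehicle groups were given MEM-alpha medium, and the supernatant groups culture supernatant of Lactobacillus reuteri. RNA was taken on days 1, 3 and 5, and each of the 6 groups has 2 libraries. The cells are 1 line, and the labels do not state whether a group's libraries are separate cultures, so p-values reflect only how far these libraries differ, and that difference may be technical.

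LXRs are nuclear receptors that bind oxysterols and desmosterol, sterols that build up when a cell holds excess cholesterol. Paired with a retinoid X receptor, they switch on genes that move cholesterol out of the cell, pass phospholipid between lipoproteins, slow lipoprotein uptake and adjust membrane lipids. Macrophages are a main site of this program because they take up lipoproteins and cell debris. Plin2, which coats lipid droplets, also responds to fatty acid receptors of the PPAR family and is widely used as a marker of stored lipid.

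The start regions of Abca1 and Plin2 are printed because these were the members that rose with the supernatant on day 1. Both are 250-base stretches ending at the base before the RefSeq transcript start, in build GRCm38.p6, read along the gene on the minus strand: Abca1 at chr4:53159896-53160145 and Plin2 at chr4:86670060-86670309. Capitals mark a match to a core of the LXR element in Abca1 (GGTNA, then 5 bases of any kind, then GGTCA) and to the nuclear receptor half-site AGGTCA in Plin2, each on the strand opposite to the one shown.
Abca1: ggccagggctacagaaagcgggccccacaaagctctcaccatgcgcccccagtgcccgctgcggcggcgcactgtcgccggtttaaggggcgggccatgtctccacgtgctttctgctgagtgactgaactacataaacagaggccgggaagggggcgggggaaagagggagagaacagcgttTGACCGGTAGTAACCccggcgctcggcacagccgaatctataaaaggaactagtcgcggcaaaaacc
Plin2: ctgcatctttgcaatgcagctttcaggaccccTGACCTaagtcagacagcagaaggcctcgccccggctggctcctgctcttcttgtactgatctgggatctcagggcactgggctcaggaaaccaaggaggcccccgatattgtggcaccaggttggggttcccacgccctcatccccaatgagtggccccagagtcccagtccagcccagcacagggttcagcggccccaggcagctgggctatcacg
RefSeq start windows of 300 bases, from 250 before to 50 after the start, were held for 8 of the 10 members, in 11 windows. On both strands, the core was found in 1 of these, at -67 to -53 of Abca1, and in 68 of all 32851 windows (0.207%). The full direct repeat, AGGTCA at both ends of a 4-base gap, holds the half-site and was in 5 windows of all genes and in none of the members. The half-site was in 16.3% of all windows and, among the members, in Plin2 at -218 to -213. An E-box, CACGTG, was in 7.15% of all windows, in Abca1 at -147 to -142 and in Plin2 at -4 to 2. These matches describe letters in the windows and are not evidence of binding.

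Before the results, 2 features of the libraries bear on every value. First, replicate 2 of days 3 and 5, in both arms, stood apart: in these 4 libraries 38.1% to 48.8% of reads fell on nuclear protein-coding genes and 25.7% to 30.6% on mitochondrial genes, against 85.2% to 87.6% and 3.64% to 5.97% in the other 8. They held 8071160 to 10724569 reads against 13812078 to 16781080 and are called low-mRNA libraries below. Second, replicate 1 of day 5 differed from replicate 2 in osteoclast markers in both arms. Acp5, the osteoclast phosphatase, was at 35.9 and 21.1 normalized counts there, against 12.1 to 25.8 on day 1, 674.7 to 1068 on day 3 and 771 and 1231 in replicate 2 of day 5. Ctsk, the osteoclast collagenase, was at 299 and 281 there, against 170 to 316 on day 1 and 6680.1 and 7164 in replicate 2. Others of the list did not match day 1: Mmp9 was at 663 and 798 against 155 to 194, Atp6v0d2 at 809 and 600.1 against 288 to 463, and Ocstamp at 54.3 and 3.67 against 121 to 219. For Acp5, the day 5 groups therefore joined an intact library near the day 1 level with a low-mRNA library in which it was high. Defining macrophage markers (Csf1r, Adgre1, Cd68, Itgam) were present in all 12 libraries. Mrc1, also on the macrophage list, did not pass the filter on low values. It was at 0 in both supernatant libraries of day 3 and in replicate 2 of both day 5 arms, and at most 18.4 elsewhere. The summed B cell, T cell, fibroblast and epithelial markers stayed at or below 15.5 normalized counts.

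Values below are normalized counts per library. Differences are on the log2(normalized count + 1) scale, with supernatant minus vehicle or later minus earlier day. Tests are limma models over all 14715 genes with Benjamini-Hochberg adjustment, and "rose" or "fell" means an adjusted p under 0.05. Over all 12 libraries with 1 mean per group, no gene passed in any comparison, members included, with limma or with limma-voom on the recovered reads. With a term for the low-mRNA libraries added on days 3 and 5, 6, 10 and 60 genes passed for treatment on the 3 days and 280 to 610 for time; no member was among them for treatment, and Abcg1 was in all 4 time comparisons. At an unadjusted p under 0.05 in the fit without that term, the treatment comparisons of days 1, 3 and 5 held 19, 43 and 51 genes, none of them a member. Unless the low-mRNA term is named, calls below come from a fit to the 8 other libraries, in which days 3 and 5 have 1 library per arm and the spread comes from the 4 day 1 libraries, so a lone library is assumed to vary as those did. In bulk RNA, fewer cells of a type and less RNA per cell cannot be told apart.

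Per kilobase of exon, the members spanned a wide range of levels in vehicle cells on day 1. Lpl, which hydrolyses lipoprotein triglyceride, was at 8310.2 normalized counts per kb (mean, n = 2). Pltp at 640.2 and Plin2 at 615 followed, and their libraries overlapped. Then came Lpcat3 at 214, Nr1h2 at 131, Abcg1 at 96.9, Mylip at 60.3, Nr1h3 at 21.3, Apoe at 10.6 and Abca1 at 5.54, with no overlap between the libraries of neighbours in this part of the order. Of the paired genes, Nr1h2 thus stood above Nr1h3 and Abcg1 above Abca1.

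**Figure D1:**
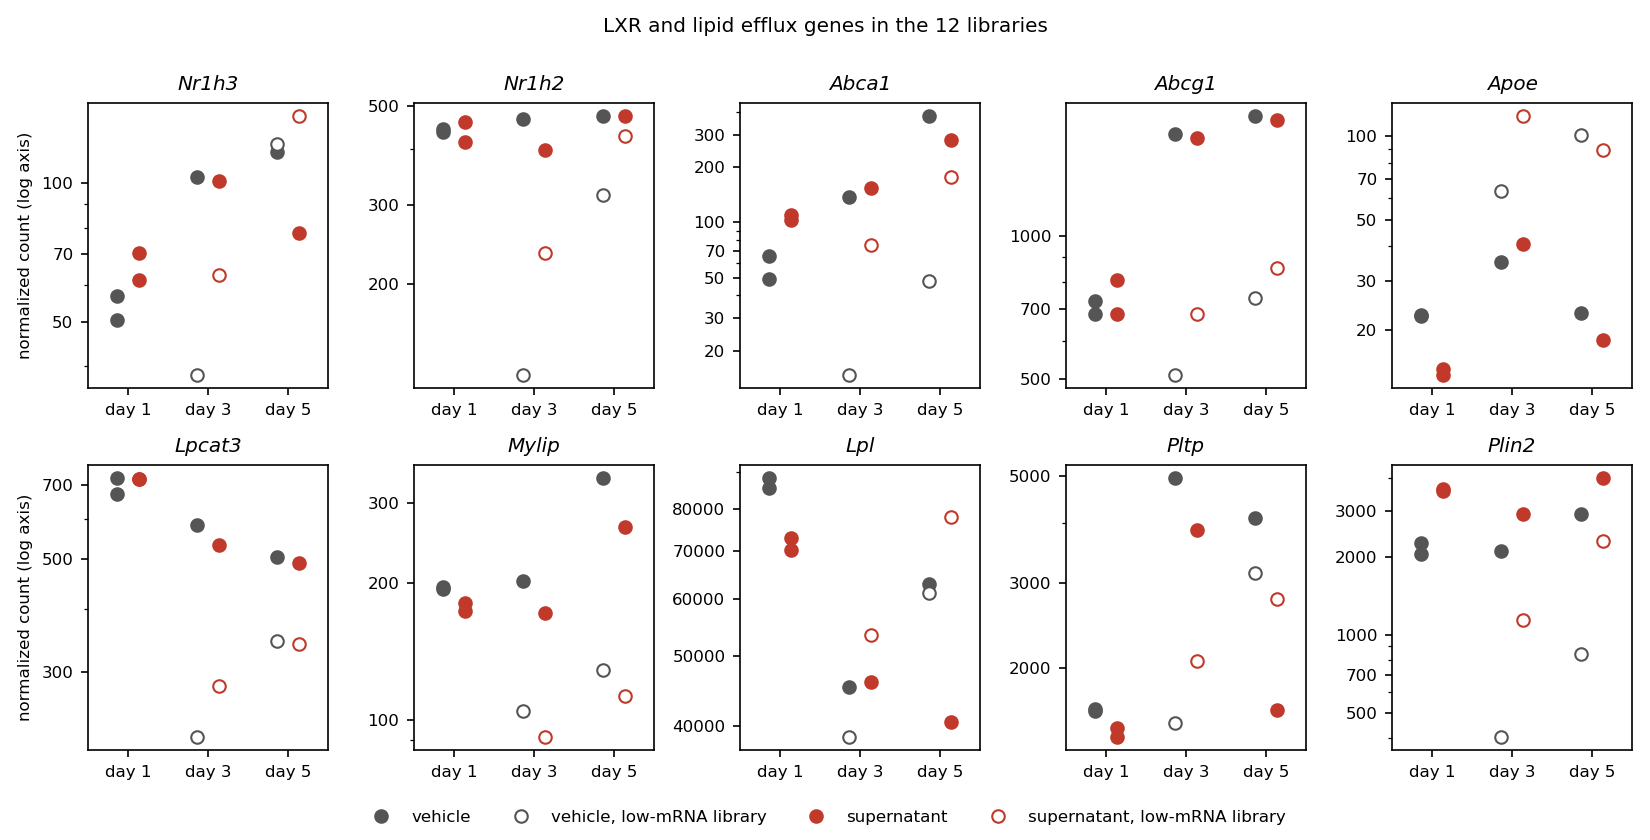
Normalized counts of the 10 members (log axis, scale set per gene) in each of the 12 libraries by day, with vehicle and supernatant apart and the low-mRNA libraries marked by open symbols. Plin2 of the supernatant libraries lies above the same-numbered vehicle library at each day, while Abca1 is separated by arm on day 1 and has its vehicle maximum, 380.0, on day 5.

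Neither receptor was called between arms on any day. Nr1h3 encodes LXR alpha, the inducible receptor of macrophages. On day 1 it was at 56.8 and 50.3 normalized counts in vehicle and 70.5 and 61.6 in supernatant libraries. Both supernatant values lay above both vehicle values, by 0.30 on the log2 scale (SE 0.16), which did not pass the test (adjusted p = 0.311, limma, 8 libraries). On day 3 Nr1h3 was at 103 and 38.2 in vehicle and 101 and 63.0 in supernatant libraries, and on day 5 at 117 and 122 against 78.0 and 139.8. These groups overlapped on both days. The intact pairs differed by -0.03 on day 3 and -0.58 on day 5, and the low-mRNA pairs by 0.71 and 0.20.

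Nr1h2 encodes LXR beta, the receptor expressed in most tissues. It was at 437 and 443 normalized counts in vehicle and 461 and 414 in supernatant libraries on day 1, and the groups overlapped. On day 3 it was at 467 and 125 against 398 and 235, and on day 5 at 475 and 316 against 473 and 428. The 3 lowest values were in low-mRNA libraries, the lowest being the vehicle library of day 3. The treatment difference over 8 libraries was -0.01 on day 1 (SE 0.07), -0.23 on day 3 and -0.0041 on day 5, none past the test. In the low-mRNA pairs it was 0.90 on day 3 and 0.43 on day 5.

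Abca1, which hands cholesterol and phospholipid to lipid-poor apolipoproteins, rose with the supernatant on day 1. It was at 49.2 and 65.5 normalized counts in vehicle libraries (57.4 ± 11.5, SD, n = 2) and at 110.0 and 103 in supernatant libraries (106 ± 5.19, SD, n = 2). The groups did not overlap, and the difference was 0.89 on the log2 scale (SE 0.17, adjusted p = 0.0483, limma, 8 libraries). The call was lost in the 4 day 1 libraries alone (adjusted p = 0.0595) and when either day 5 library was left out. On day 3 Abca1 was at 138 and 14.7 in vehicle and 154 and 75.6 in supernatant libraries, a difference of 0.16 in the intact pair and 2.29 in the low-mRNA pair. On day 5 it was at 380.0 and 48.0 against 279.9 and 177, which is -0.44 in the intact and 1.86 in the low-mRNA pair. The later groups overlapped, and the day 5 pairs lay in opposite directions.

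Abcg1, which exports cholesterol to mature HDL, showed no treatment call on any day. Its values on day 1 were 683 and 731 normalized counts in vehicle and 809 and 686 in supernatant libraries. On day 3 they were 1639 and 509 against 1602 and 683, and on day 5 1788 and 740.4 against 1755 and 857. Within the intact pairs the arms differed by -0.03 on both later days, and within the low-mRNA pairs by 0.43 and 0.21. The groups overlapped at every day.

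Apoe, the apolipoprotein that macrophages secrete as a cholesterol acceptor, was low throughout. On day 1 it was at 22.7 and 22.4 normalized counts in vehicle and 13.7 and 14.5 in supernatant libraries. Both supernatant values were below both vehicle values, by -0.64 (SE 0.20), and this did not pass the test (adjusted p = 0.133, limma, 8 libraries). On day 3 it was at 35.2 and 63.2 against 40.7 and 118, and on day 5 at 23.0 and 100.3 against 18.4 and 88.9. The low-mRNA libraries held the higher Apoe value in each of these 4 groups.

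Pltp, which transfers phospholipid between lipoproteins, fell with the supernatant on day 5 in the 8-library fit. It was at 4097 and 3152 normalized counts with vehicle and 1639 and 2783 with supernatant on that day, and the groups did not overlap. The intact pair differed by -1.32 (SE 0.06, adjusted p = 0.00806, limma, 8 libraries) and the low-mRNA pair by -0.18. On day 1 Pltp was at 1631 and 1650 against 1505 and 1441, also without overlap, by -0.16 (adjusted p = 0.111). On day 3 it was at 4948 and 1546 against 3871 and 2075, with -0.35 in the intact and 0.42 in the low-mRNA pair, so those groups overlapped. With a term for the low-mRNA libraries in a 12-library fit, the day 5 difference was -0.75 (SE 0.25, adjusted p = 0.277).

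Lpl, the lipase that frees fatty acids from lipoproteins, had the highest level per kb of the members in every library. On day 1 it was at 85695 and 88454 normalized counts with vehicle and 70130 and 73008 with supernatant. Both supernatant values lay below both vehicle values, by -0.28 (SE 0.08, adjusted p = 0.108, limma, 8 libraries). On day 3 it was at 45262 and 38508 against 45937 and 53427, so both supernatant values lay above both vehicle values, by 0.02 in the intact and 0.47 in the low-mRNA pair. On day 5 it was at 62897 and 61114 against 40506 and 78044. Lpl fell there in the 8-library fit, by -0.63 (SE 0.11, adjusted p = 0.0446), while in the low-mRNA pair the supernatant library was higher by 0.35, and the day 5 groups overlapped.

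Lpcat3, the acyltransferase that loads polyunsaturated chains into membrane phospholipid, gave similar values in both arms. It was at 673 and 723 normalized counts in vehicle and 719 and 719 in supernatant libraries on day 1. On day 3 the values were 584 and 223 against 534 and 282, and on day 5 506 and 346 against 492 and 341. The 8-library differences were 0.04, -0.13 and -0.04 on the 3 days, none past the test, and all groups overlapped.

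Mylip encodes IDOL, a ubiquitin ligase that lowers lipoprotein uptake. It was at 196 and 194 normalized counts in vehicle and 180.5 and 174 in supernatant libraries on day 1, at 202 and 104 against 172 and 91.3 on day 3, and at 341 and 129 against 266 and 113 on day 5. The supernatant library was lower in 6 of 6 same-numbered pairs, by 0.12 to 0.36 in size on the log2 scale. On day 1 the number is only a name, but both supernatant values lay below both vehicle values, so either pairing gives this count. Of all genes tested, 2.04% were lower in 6 of 6. No day passed the test over 8 libraries: the differences were -0.14, -0.23 and -0.36, with adjusted p = 0.377, 0.520 and 0.145 (limma).

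Plin2 rose with the supernatant on days 1 and 5. On day 1 it was at 2264 and 2053 normalized counts with vehicle (2158 ± 149, SD, n = 2) and 3659 and 3585 with supernatant (3622 ± 52.1, SD, n = 2). The groups did not overlap, and the difference was 0.75 (SE 0.06, adjusted p = 0.0110, limma, 8 libraries). The 4 day 1 libraries alone also gave this call (adjusted p = 0.0110). On day 3 Plin2 was at 2109 and 401 against 2909.6 and 1140.1, which is 0.46 between the intact libraries (adjusted p = 0.152) and 1.504 between those low in mRNA. On day 5 it was at 2927 and 841 against 4022 and 2290, which is 0.46 between the intact libraries (SE 0.08, adjusted p = 0.0471) and 1.44 between those low in mRNA. The supernatant library was higher in 6 of 6 same-numbered pairs, with either pairing on day 1, where the number is only a name. Of all genes tested, 7.27% were higher in 6 of 6. With the low-mRNA term over 12 libraries the differences were 0.75, 0.98 and 0.95 on the 3 days, and none passed (adjusted p = 0.752, 0.224 and 0.163).

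**Figure D2:**
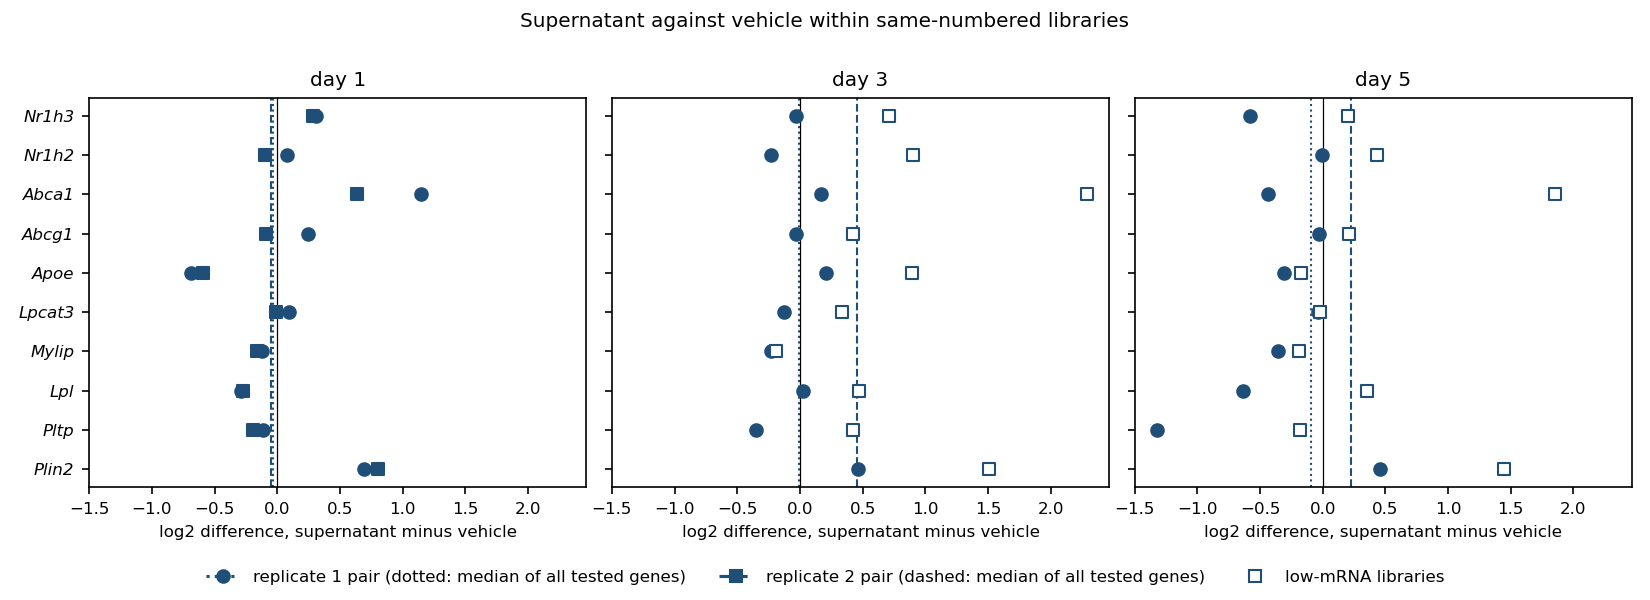
Supernatant minus vehicle on the log2(normalized count + 1) scale for each member and each same-numbered pair of libraries, by day (circles for replicate 1, squares for replicate 2, open for low-mRNA libraries, broken lines for the median of all tested genes). All 6 Plin2 points lie above 0 and all 6 Mylip points below it, whereas Abca1 and Lpl have points on both sides at day 5.

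Read as a group, the members showed no treatment direction shared by all 3 days. Over 8 libraries 5 were higher and 5 lower on day 1, 4 and 6 on day 3, and 1 and 9 on day 5. Of all 14715 genes, 6117 were higher and 8555 lower on day 1, 7115 and 7522 on day 3, and 5295 and 9324 on day 5. Over 12 libraries 9 members were higher on day 3 (11236 of all genes) and 4 on day 5 (8747 of all genes). On day 1, 2 of 10 rose (Abca1 and Plin2) and none fell, where 5.74% of all genes were called, 3.12% higher and 2.62% lower. The median member difference was 0.02 against -0.04 over all genes. On day 3 none of 10 was called (0.116% of all genes), with Plin2 and Pltp at an unadjusted p under 0.05 and a median of -0.03 against -0.01. On day 5, 1 rose (Plin2) and 2 fell (Pltp and Lpl), where 5.81% of all genes were called, 2.54% higher and 3.27% lower. The median was -0.33 against -0.09. Each of these calls needed all 4 day 1 libraries: with any 1 of the 4 left out, the 8-library fit called no gene for treatment on any day. That omission left 1 residual degree of freedom in place of 2, so the loss does not show that a call rests on a particular library. With the low-mRNA term over 12 libraries, no member was called on days 1, 3 or 5, where 0.0408%, 0.0680% and 0.408% of genes were. At an unadjusted p under 0.05 that fit held Plin2 on day 1, Abca1 and Plin2 on day 3, and Plin2 and Pltp on day 5.

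Groups that did not overlap were frequent on day 1, where Abca1, Nr1h3 and Plin2 were higher and Mylip, Apoe, Lpl and Pltp lower in both supernatant libraries. Of all genes, 21.4% were separated upward and 33.4% downward on that day. On day 3 Lpl alone of the members was separated, upward (4.46% of genes), and on day 5 Pltp alone, downward (3.88% of genes). The supernatant library of the low-mRNA pair stood above its vehicle partner for more than the members: the median over all genes was 0.46 on day 3 and 0.23 on day 5, against -0.01 and -0.09 in the intact pairs. The low-mRNA values of Plin2 and Abca1 above should be read against those medians.

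Whether the treatment difference itself changed with day was tested by an F test over the 3 days. In the 8-library fit, Pltp was called (adjusted p = 0.0436), along with 0.102% of all genes: its difference went from -0.16 on day 1 to -1.32 on day 5, a change of -1.17. Abca1 went from 0.89 to -0.44 in the same libraries and was not called (adjusted p = 0.185), nor was Plin2 (0.277) or Lpl (0.218). Over 12 libraries no member was called with the low-mRNA term (Pltp at 0.808) or without it.

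**Figure D3:**
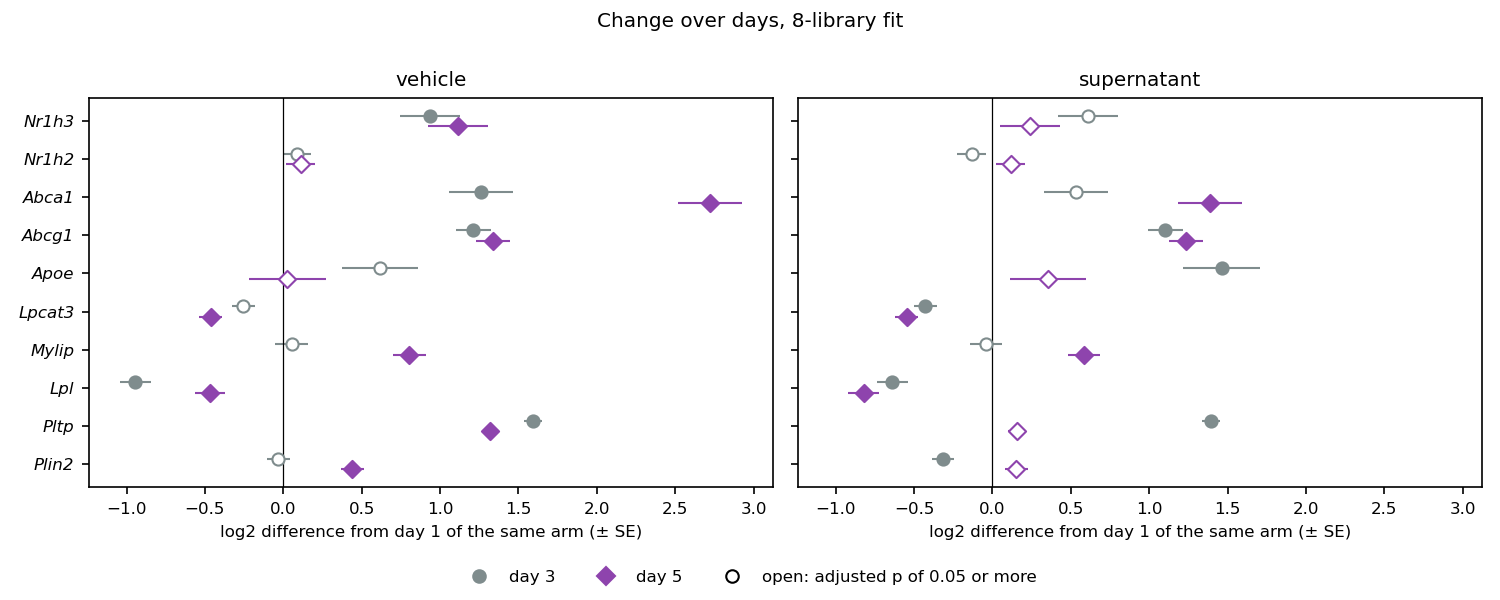
Change from day 1 to days 3 and 5 in each arm for the 10 members, as log2 differences with standard errors from the 8-library limma fit, open where the adjusted p was 0.05 or more. Abcg1 lies between 1.10 and 1.34 in all 4 comparisons, and the day 5 change of Pltp is 1.32 in vehicle and 0.15 in supernatant cells.

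More members were called for time under RANKL than for the supernatant, as was the case for genes at large. In vehicle cells on day 3, 4 of 10 rose over day 1 (Abca1, Abcg1, Nr1h3 and Pltp) and Lpl fell, where 9.69% of all genes rose and 10.0% fell (19.7% in all). On day 5, 6 rose (Abca1, Abcg1, Mylip, Nr1h3, Plin2 and Pltp) and 2 fell (Lpl and Lpcat3), where 14.4% rose and 15.0% fell (29.4% in all). With supernatant on day 3, 3 rose (Abcg1, Apoe and Pltp) and 3 fell (Lpl, Lpcat3 and Plin2), where 10.8% rose and 9.13% fell (20.0% in all). On day 5, 3 rose (Abca1, Abcg1 and Mylip) and 2 fell (Lpl and Lpcat3), where 12.9% rose and 18.1% fell (31.0% in all). The low-mRNA term over 12 libraries called fewer: Abcg1 and Pltp in vehicle on day 3 (2.87% of genes) and Abcg1 on day 5 (2.93%), and with supernatant Abcg1, Apoe and Pltp on day 3 (1.90%) and Abcg1 on day 5 (4.15%). The 8-library counts also rested on the day 1 libraries. In vehicle on day 3, no gene was called without replicate 1 of vehicle day 1, and 69 genes with Pltp alone of the members without replicate 2. On day 5, 3 and 2 members were called without these. With supernatant, 1 member was called on day 3 without either supernatant library of day 1 (Pltp), and 1 on day 5 (Abcg1). Only some member calls were kept with each day 1 library left out in turn: Abca1 and Pltp (vehicle, day 5), Pltp (supernatant, day 3) and Abcg1 (supernatant, day 5). Each of those fits had 1 residual degree of freedom. These 4 comparisons share their day 1 libraries within an arm, and the day 5 values rest on replicate 1, in which Acp5 was near its day 1 level. Over 12 libraries these comparisons called no gene with limma or limma-voom. At an unadjusted p under 0.05 limma held 288 and 207 genes in vehicle and 168 and 174 with supernatant, among them Lpl (vehicle, day 3) and Apoe (supernatant, day 3). With quantile normalization it held 512 and 646 genes in vehicle and 395 and 635 with supernatant, without Lpl or Apoe. The members held were Abcg1 and Pltp on day 3 in both arms, and Abcg1 on day 5 in both arms. Abca1, Nr1h3 and Pltp were also held in vehicle on day 5. Scaling to nuclear protein-coding reads held the same members, among 514 and 517 genes in vehicle and 314 and 516 with supernatant.

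Among the transporters, Abca1 was higher by 1.26 on day 3 (SE 0.20, adjusted p = 0.0144, limma, 8 libraries) and by 2.72 on day 5 (SE 0.20, adjusted p = 0.00171) in vehicle cells. With supernatant its change was 0.53 on day 3, which did not pass, and 1.39 on day 5. The low-mRNA vehicle libraries were below both day 1 values, at 14.7 and 48.0 normalized counts against 49.2 and 65.5, and genes at large were lower in them too. With quantile normalization or protein-coding scaling over 12 libraries, the vehicle day 5 change of Abca1 had an unadjusted p under 0.05 (limma) and was not called. With the low-mRNA term no Abca1 change over time was called (adjusted p = 0.0865 to 0.652, limma). The vehicle day 3 call was also lost when any 1 day 1 library was left out of the 8-library fit. Abcg1 was higher by 1.21 and 1.34 in vehicle and by 1.10 and 1.24 in supernatant cells on days 3 and 5. Its supernatant day 3 call was lost when any 1 day 1 library was left out of the 8-library fit. Both vehicle calls were lost without either vehicle library of day 1, and the supernatant day 5 call was kept each time. Abcg1 was also the member called in all 4 time comparisons with the low-mRNA term over 12 libraries, at 1.10 to 1.29 (adjusted p = 0.00631 to 0.0128, limma). That term takes up the shift common to the low-mRNA libraries of a day. Those changes therefore set the intact level against day 1, and a lower level in the low-mRNA libraries could not oppose them. Its low-mRNA libraries held 509 to 857 normalized counts, against 683 to 809 on day 1.

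Nr1h3 was higher by 0.94 on day 3 and 1.11 on day 5 in vehicle cells (adjusted p = 0.0278 and 0.0129, limma, 8 libraries). Its day 5 vehicle libraries, 117 and 122, lay above both day 1 libraries, while the low-mRNA vehicle library of day 3, at 38.2, lay below both. Neither rise was called with the low-mRNA term (adjusted p = 0.293 and 0.148), and the day 3 rise was lost when any 1 day 1 library was left out of the 8-library fit. With supernatant the changes were 0.61 and 0.24, neither past the test. Nr1h2 was not called in any of the 4 time comparisons, with changes of -0.13 to 0.12.

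Pltp was higher by 1.59 on day 3 and 1.32 on day 5 in vehicle cells, and by 1.39 on day 3 with supernatant (adjusted p = 6.00e-04, 9.11e-04 and 0.00110, limma, 8 libraries). With the low-mRNA term over 12 libraries the day 3 differences were 1.40 and 1.59 and were called, while the vehicle day 5 difference of 1.03 was not (adjusted p = 0.0809). The low-mRNA vehicle library of day 3, at 1546, lay below both day 1 libraries, 1631 and 1650. Lpl was lower by 0.47 to 0.94 in size in the 4 comparisons and was called in each of them in the 8-library fit. Both low-mRNA vehicle libraries of Lpl, 38508 and 61114, were below 85695 and 88454, the day 1 values. Genes at large were lower in these libraries too. The median gene of vehicle cells stood at -0.83 and -0.59 on days 3 and 5 over 12 libraries, against 0.04 and -0.0033 over 8. With scaling to nuclear protein-coding reads over 12 libraries, the day 5 difference of Lpl changed sign in both arms. With supernatant, the low-mRNA library was below the day 1 values on day 3 (53427) and above both on day 5 (78044). With the low-mRNA term no Lpl change over time was called. Apoe rose by 1.46 with supernatant on day 3 (adjusted p = 0.0171), and by 1.63 with the low-mRNA term (adjusted p = 0.0342), from 13.7 and 14.5 to 40.7 and 118 normalized counts. In vehicle cells its day 3 change of 0.62 did not pass. Lpcat3 fell by 0.46 on day 5 in vehicle cells, and by 0.43 and 0.55 on days 3 and 5 with supernatant. Its low-mRNA libraries, at 223 to 346, were below all day 1 values, a direction shared with genes at large in those libraries. The low-mRNA term called none of these Lpcat3 changes.

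Plin2 was at about its day 1 level on day 3 in vehicle cells (-0.03, adjusted p = 0.795) and rose by 0.44 on day 5 (adjusted p = 0.0116) in the intact libraries. The low-mRNA vehicle libraries, at 401 and 841 normalized counts, lay below both day 1 values, 2264 and 2053. Over 12 libraries the differences were -1.23 and -0.46, and with the low-mRNA term -0.29 and 0.19 (adjusted p = 0.721 and 0.774). With supernatant it fell by 0.32 on day 3 (adjusted p = 0.0396), from the raised day 1 level, and differed by 0.15 on day 5, which did not pass. Its low-mRNA supernatant libraries, at 1140.1 and 2290, were below the day 1 values as well. Mylip was higher on day 5 by 0.80 in vehicle and 0.59 in supernatant cells (adjusted p = 0.00580 and 0.0133). Its low-mRNA libraries of day 5, 129 and 113 normalized counts, lay below the day 1 values of both arms.

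Scaling bears on the time comparisons. Over 12 libraries the median gene stood at -0.83 and -0.59 on days 3 and 5 against day 1 in vehicle cells and 0.23 for treatment on day 3. Member values of low-mRNA libraries that lay below day 1 should be read against the shift over time. Relative to that shift, the 12-library change of Abca1 in vehicle cells on day 3 turned from below 0 to 0.20 with quantile normalization and to 0.25 with scaling to nuclear protein-coding reads. The treatment directions of Plin2 and Mylip kept their sign under every scaling tried.

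Marker levels moved with these comparisons. The summed macrophage markers (8 of 8 in the table, led by Lyz2) were at 126151 to 175650 normalized counts on day 1, at 80322 and 104666 in the intact and 21921 and 52430.5 in the low-mRNA libraries of day 3, and at 333518 and 325205 in the intact and 80087 and 143866 in the low-mRNA libraries of day 5. Lyz2 made up most of each sum. In vehicle cells it went from 104639 and 94717.5 on day 1 to 47777 in the intact day 3 library, and Cd14 was lower there too. Csf1r, Cd68 and Spi1 were higher in that library, with Csf1r at 12745.7 against 10176 and 9266 on day 1. Over 8 libraries, 4 of the 7 tested macrophage markers were higher on day 3 in vehicle cells and 3 were lower. The summed osteoclast markers (9 of 9 in the table) were at 2285 to 2639 on day 1, 3137 to 11214 on day 3, and 2703 and 2529 in replicate 1 against 15259 and 17152 in replicate 2 of day 5. In vehicle cells Abca1, Abcg1, Mylip, Nr1h2 and Plin2 had their highest values in the day 5 library with the highest macrophage marker sum. The other members did not: Lpl and Lpcat3 were highest on day 1 and Pltp in the intact day 3 library. Nr1h3 and Apoe were highest in the low-mRNA day 5 library. The part of cell state in these differences was not tested.

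Neighbouring genes of the pathway were read from lists of partners, other targets and lipid handling genes. On day 1, where the treatment background was 5.74%, none of 13 LXR partners and cofactors and none of 10 other LXR targets was called in the 8-library fit. Rxra, the retinoid X receptor that pairs with LXR, was at 315 and 267.5 normalized counts in vehicle and 373 and 328 in supernatant libraries, a difference of 0.27 (adjusted p = 0.234, limma). Srebf1, the lipid synthesis regulator that is a classical LXR target, differed by -0.11 (adjusted p = 0.222). Ch25h, the enzyme that makes a soluble oxysterol, was at most 1.71 normalized counts and was not tested.

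Of the genes of cholesterol storage and transport, 4 of 12 rose on day 1 and none fell, where 3.12% of all genes rose and 2.62% fell, with a median of 0.20 against -0.04 over all genes. Nceh1, which hydrolyses cholesteryl esters, was at 1378 and 1276 normalized counts in vehicle and 2278 and 2308 in supernatant libraries, with no overlap, a rise of 0.79 (SE 0.05, adjusted p = 0.00798, limma, 8 libraries). The lysosomal cholesterol exporters Npc1 and Npc2 rose by 0.31 each, and Soat1, which esterifies cholesterol, by 0.25. Of 7 lipid droplet and lipolysis genes, Hilpda, an inhibitor of droplet lipolysis, rose by 0.79 (adjusted p = 0.0240), from 102 and 98.7 to 172 and 178 normalized counts. Of 10 lipoprotein uptake genes, 3 rose, the fatty acid binding proteins Fabp4 (1.91) and Fabp5 (0.65) and the scavenger receptor Msr1 (0.66), and Lrp8 fell by 0.33. Of 7 lysophospholipid acyltransferases, Lpcat2 rose by 0.35.

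No gene of these lists was called for treatment on day 3. Fabp4 was at 14.1 and 0 normalized counts with vehicle and 27.4 and 4.72 with supernatant on that day, and the groups overlapped. Angptl4, an LPL inhibitor induced by PPARs, differed by -0.54, 0.63 and 0.39 on days 1, 3 and 5 over 8 libraries, and Scd1, a fatty acid desaturase, by 0.28, 0.42 and 0.48. In the low-mRNA pairs of days 3 and 5 Angptl4 differed by 1.85 and 0.52 and Scd1 by 0.77 and 0.89. None of the 6 differences over 8 libraries passed (adjusted p = 0.150 to 0.507, limma). Rxra differed by 0.49 on day 3 and -0.09 on day 5, and Srebf1 by 0.02 and -0.22, also without a call. On day 5 Hilpda rose by 1.48 in the 8-library fit (adjusted p = 0.0171, limma). It was at 107 and 24.0 normalized counts in vehicle and 299 and 135 in supernatant libraries, so both supernatant values were above both vehicle values, and its low-mRNA pair differed by 2.44. Abhd5, the activator of triglyceride lipolysis, rose by 0.46, with 0.69 in its low-mRNA pair, and Nampt, in the list of other LXR targets, by 0.56 (0.95 in that pair). Cd36, a fatty acid transporter and scavenger receptor, fell by 0.62 in the intact pair (adjusted p = 0.0213) while its low-mRNA pair differed by 0.97, in the direction split seen for Lpl. None of 12 storage and transport genes, 13 partners or 7 acyltransferases was called on day 5. With the low-mRNA term over 12 libraries, Hilpda rose on day 5 (1.96, adjusted p = 0.0297), and no other gene of these lists was called for treatment on any day.

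**Figure D4:**
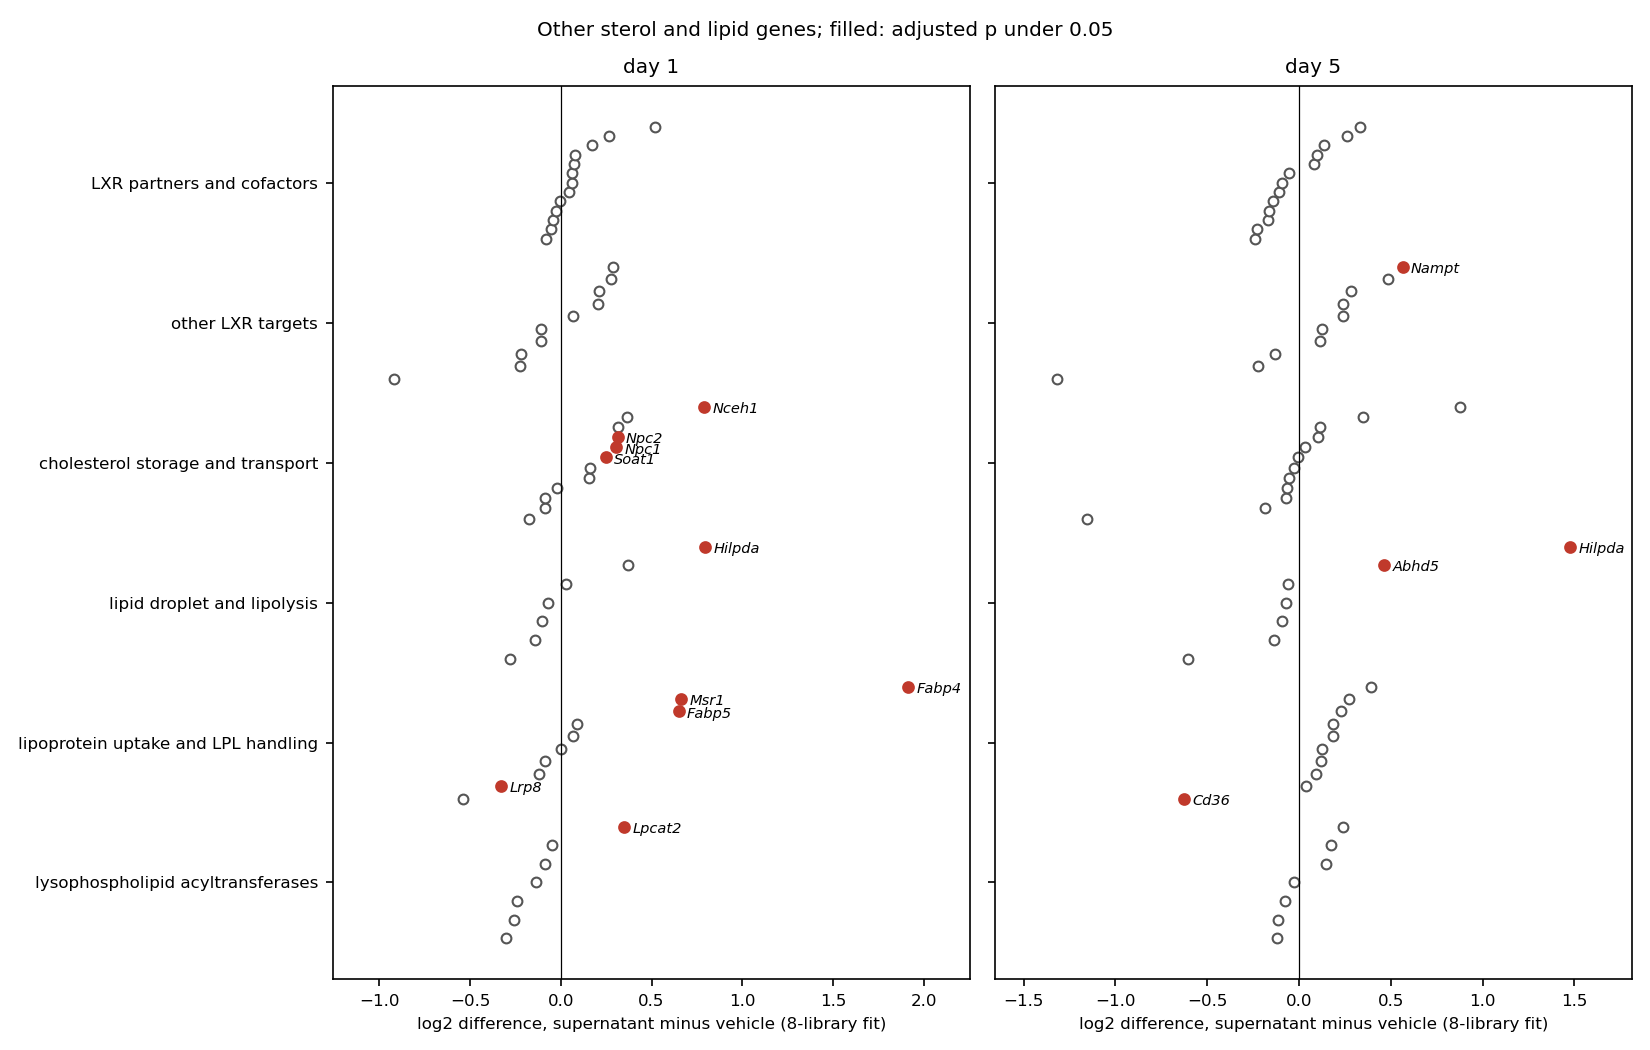
Treatment differences on days 1 and 5 (log2 axis, supernatant minus vehicle) in the 8-library limma fit for 6 pathway lists, 1 point per tested gene, with genes at an adjusted p under 0.05 filled and named. The 4 filled genes of the storage and transport list lie above 0 on day 1, and Hilpda has the largest difference of the lipid droplet list on day 5.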

How the data were processed

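RNA sequencing libraries (TruSeq kit, total RNA) of 12 samples were grouped by their titles. TopHat2, SAMtools, DESeq2 and build mm9 were used by the authors, per the submitters' processing notes. Versions, annotation, counting step and strand setting were not given in the sources used here, so reads of overlapping or antisense genes cannot be told apart. The authors deposited 1 table with a log2 value for each gene in each library, per the file headers. From the values, each is log2 of a normalized count plus 8: the lowest is 3, and after the offset was removed every library had 100% of its positive values at whole numbers of reads, to within 0.02 reads. Reads recovered in this way gave depths of 8071160 to 16781080 per library. Of 24757 rows, 993 repeats were dropped, leaving 23764 identifiers. A further identifier column differed from the Ensembl column in 23715 rows and was not used, since symbols and values followed the Ensembl column. Names came from the reference for 23315 genes and exon lengths from GENCODE M21. Sequences are from RefSeq.

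The filter kept 14715 genes whose group mean reached 10 normalized counts in 1 or more of the 6 groups. limma 3.58.1 in R 4.3.3 with a trended prior was fitted to log2(normalized count + 1), with 1 mean per group and Benjamini-Hochberg adjustment over all 14715 genes. Changes of genes with low counts are understated on this scale. The main fit had 12 libraries, 6 residual degrees of freedom and no block. The 8-library fit (2 residual degrees of freedom) left out libraries with under 60% of reads on nuclear protein-coding genes. A further fit added a term for these libraries on each of days 3 and 5 (4 residual degrees of freedom). As day 1 has no such library, time differences in that fit refer to the intact level. For time they are not separate support from the low-mRNA libraries. As the deposited unit is log2, limma-voom on the recovered reads stood in for a count test. The other alternatives were a replicate block, no filter, quantile normalization, scaling to nuclear protein-coding totals, pseudocounts of 0.5 and 5, and leaving out each library. Replicates differed by more than sampling noise: chi-square per degree of freedom was 3.94 and 4.93 on day 1 and 495 to 708 on days 3 and 5.

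On simulated data with 100 of 14715 genes changed by 1 and 100 by 2 on the log2 scale, the 12-library fit recovered 0 in each treatment comparison. The 8-library fit recovered 21 and 65 on day 1, 0 and 0 on day 3 and 1 and 39 on day 5, with 0 false calls. The fit with the low-mRNA term recovered 62 and 90, 71 and 87, and 72 and 89, with 1 to 4 false calls. The simulation used 1 fixed dispersion, so the lone libraries of days 3 and 5 varied as those of day 1 did, which the 8-library fit assumes. Its 0 false calls and its recovery therefore do not show how that fit performs in these data. The simulation also gave both arms the same low-mRNA shift, which is what the low-mRNA term assumes. In the data the median pair difference on days 3 and 5 was 0.46 and 0.23 in the low-mRNA pairs. It was -0.01 and -0.09 in the intact pairs. The recovery therefore does not show how many changes the fit with the low-mRNA term finds in these data.

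All members were named. Of each list, the genes that could be named were the 2 with the smallest p over 12 libraries, up to 2 with the smallest p past the threshold over 8 libraries, and 8 genes fixed for every comparison; Npc2, Soat1 and Lrp8 were named after their values were seen, to complete counts. Some genes under this rule, and 1 list, are not reported here. The members, the lists and the 8-library fit were chosen with earlier results of these data known.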

Additional observations from a re-analysis of the deposited data

Results flagged for a closer look

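Lpl lay in opposite directions on days 1 and 3. On day 1 both supernatant libraries were below both vehicle libraries, with a difference of -0.28 on the log2 scale, and on day 3 both were above both, with a difference of 0.25 over the 12 libraries. The difference between the days was tested with the F test over the 3 days and was not called: the adjusted p was 0.218 in the 8-library fit, 0.808 with the term for low-mRNA libraries and 1.00 over 12 libraries without it (limma). The day 3 difference lay mostly in the low-mRNA pair, at 0.47 against 0.02 in the intact pair, and the median of all genes in that low-mRNA pair was 0.46.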

How the results depend on the processing

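Over 12 libraries with 1 mean per group no gene or member was called in any comparison, and quantile normalization, protein-coding scaling, pseudocounts, limma-voom and dropping the filter left this at 0. The replicate block also gave 0 calls in every comparison. Same-numbered libraries deviated together among days 3 and 5 (correlation 0.782 to 0.899) but not where day 1 was involved (0.0483 to 0.0913), so the numbers were not taken to pair all samples, and counts over same-numbered pairs are descriptions.

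The 8-library fit called 844, 17 and 855 genes for treatment on days 1, 3 and 5 (2, 0 and 3 members), 2898 and 4330 in vehicle (5 and 8 members), 2940 and 4560 in supernatant cells over time (6 and 5 members), and 15 genes (1 member) for the difference between days. The term for low-mRNA libraries gave 6, 10 and 60 genes for treatment, 423 and 431 in vehicle (2 and 1 members), and 280 and 610 with supernatant (3 and 1 members). The 4 day 1 libraries alone called 820 genes and 1 member. In the 8-library fit without 1 day 1 library, members called over time numbered 0 to 3 on day 3 and 2 to 7 on day 5 in vehicle, and 1 and 1 to 4 with supernatant.

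Member differences that changed sign against 12 libraries were mostly small; the cause was not tested. In the 8-library fit they were, for treatment on day 3, Abcg1 -0.033, Lpcat3 -0.13, Nr1h2 -0.23, Nr1h3 -0.031 and Pltp -0.35, and on day 5 Abca1 -0.44, Abcg1 -0.027 and Nr1h2 -0.0041. In vehicle on day 3 they were Abca1 1.26, Mylip 0.053 and Nr1h2 0.087, on day 5 Nr1h2 0.11 and Plin2 0.44, and with supernatant on day 5 Mylip 0.59 and Plin2 0.15. With the low-mRNA term they were Abca1 0.73 and Mylip 0.043 (vehicle, day 3), Apoe -0.0088, Nr1h2 9.41e-04 and Plin2 0.19 (vehicle, day 5), Nr1h2 0.15 (supernatant, day 3), and Mylip 0.63 and Plin2 0.40 (supernatant, day 5). With quantile normalization they were Nr1h2 0.039 (treatment, day 1), Lpcat3 -0.10 and Pltp -0.10 (treatment, day 3), Abca1 0.20, Mylip 0.42 and Nr1h2 0.015 (vehicle, day 3), Nr1h2 0.50 and Plin2 0.18 (vehicle, day 5), Mylip 0.043 and Nr1h2 0.073 (supernatant, day 3), and Mylip 0.47 and Plin2 0.086 (supernatant, day 5). With protein-coding scaling they were Lpcat3 -0.045 and Pltp -0.11 (treatment, day 3), Abcg1 -0.034 (treatment, day 5), Abca1 0.25 and Mylip 0.16 (vehicle, day 3), Lpl 0.028, Nr1h2 0.33 and Plin2 0.059 (vehicle, day 5), and Lpl 0.041, Mylip 0.35 and Plin2 0.13 (supernatant, day 5).

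Leaving out 1 library of days 3 or 5 leaves an arm with a library of 1 kind, and the sign of many 12-library differences then varied. The treatment ranges were, on day 1, Abcg1 -0.042 to 0.19, Lpcat3 -0.0065 to 0.095 and Nr1h2 -0.087 to 0.067. On day 3 they were Abca1 -0.35 to 2.80, Abcg1 -0.65 to 1.04, Apoe -0.21 to 1.31, Lpcat3 -0.59 to 0.79, Mylip -0.69 to 0.26, Nr1h2 -0.61 to 1.28, Nr1h3 -0.37 to 1.04, Plin2 -0.21 to 2.18 and Pltp -0.80 to 0.87. On day 5 they were Abca1 -0.77 to 2.19, Abcg1 -0.54 to 0.73, Apoe -1.35 to 0.87, Lpcat3 -0.30 to 0.24, Lpl -0.61 to 0.33, Mylip -0.98 to 0.43, Nr1h2 -0.077 to 0.51 and Nr1h3 -0.61 to 0.23. In vehicle the ranges were, on day 3, Abca1 -1.88 to 1.26, Abcg1 -0.47 to 1.21, Mylip -0.90 to 0.053, Nr1h2 -1.81 to 0.087, Nr1h3 -0.47 to 0.94 and Pltp -0.085 to 1.59, and on day 5 Abca1 -0.24 to 2.72, Mylip -0.60 to 0.80, Nr1h2 -0.47 to 0.11 and Plin2 -1.36 to 0.44. With supernatant they were, on day 3, Abca1 -0.49 to 0.53, Abcg1 -0.12 to 1.10 and Nr1h3 -0.064 to 0.61, and on day 5 Lpl -0.82 to 0.13, Mylip -0.65 to 0.59, Nr1h2 -0.033 to 0.12 and Plin2 -0.66 to 0.15.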
